A study of Rattus norvegicus with 16 samples.

Results

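The comparison described here sets infarcted rat hearts that received a stiff hydrogel (MI_stiff, 4 libraries) against infarcted hearts that received a soft hydrogel (MI_soft, 4 libraries), across all genes. These are 8 of the 16 libraries of the study, which profiled the infarct zone, the heart muscle damaged by the blocked artery, by bulk RNA sequencing. The libraries were chosen by their labels alone. All 8 hearts had the left anterior descending coronary artery tied off, so ligation is common to both sides and the labels differ in the gel only. The other 8 libraries, 4 of ligated hearts without a gel (MI) and 4 of sham-operated hearts (Sham), serve below as reference levels and share the fit. The study's title places the gels as injections into the heart muscle for ischemic cardiomyopathy and asks for their biomechanical basis. The gels' chemistry, stiffness and dose, the day and hour of collection, and the strain, age and sex of the rats are not stated in the labels. The extraction label names MI/R, a term used for infarction with reperfusion, so whether the artery was reopened is not known here. Nor do the labels tie each library of a group to its own rat, so every p-value here reads the spread between these libraries, part of which may be technical.

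An infarct is cleared by macrophages and lymphocytes and filled by fibroblasts that lay down collagen, while new vessels grow in from its border. Surviving heart muscle burns mostly fatty acids and answers stretch by making natriuretic peptides. A gel in the wall changes the load on that muscle and is itself a foreign material, around which macrophages can fuse into giant cells.

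Library totals of the 8 gel libraries lay between 11456157 and 14456186 counts. The share of counts from mitochondrially encoded genes was 37.2% ± 8.47 (SD, n = 4) in MI_stiff and 36.6% ± 4.21 in MI_soft (exact permutation test, two-sided, p = 0.971, where the smallest p that 4 against 4 allows is 0.0286). Heart muscle was present in every gel library: Myh6, the main myosin heavy chain of the adult rodent ventricle, lay between 1423 and 4484 CPM (counts scaled to each library's effective total) in MI_soft and between 3271 and 6661 CPM in MI_stiff. One library stood apart from the rest. MI_soft 4 had the fewest genes with a count of the gel libraries (11785, against 12019 to 12819 in the other 7), and its log2 CPM correlated with the other MI_soft libraries at r = 0.8545 to 0.8917 across genes, whereas those 3 correlated with each other at 0.9649 to 0.9769. With genes split by length into 5 classes of equal size, the shortest class in MI_soft 4 stood 1.29 log2 units higher relative to the longest class than in the average library. The median difference between MI_stiff and MI_soft ran from -0.22 in the shortest class to 0.25 in the longest, while the median of all tested genes was 0.01.

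**Figure D1:**
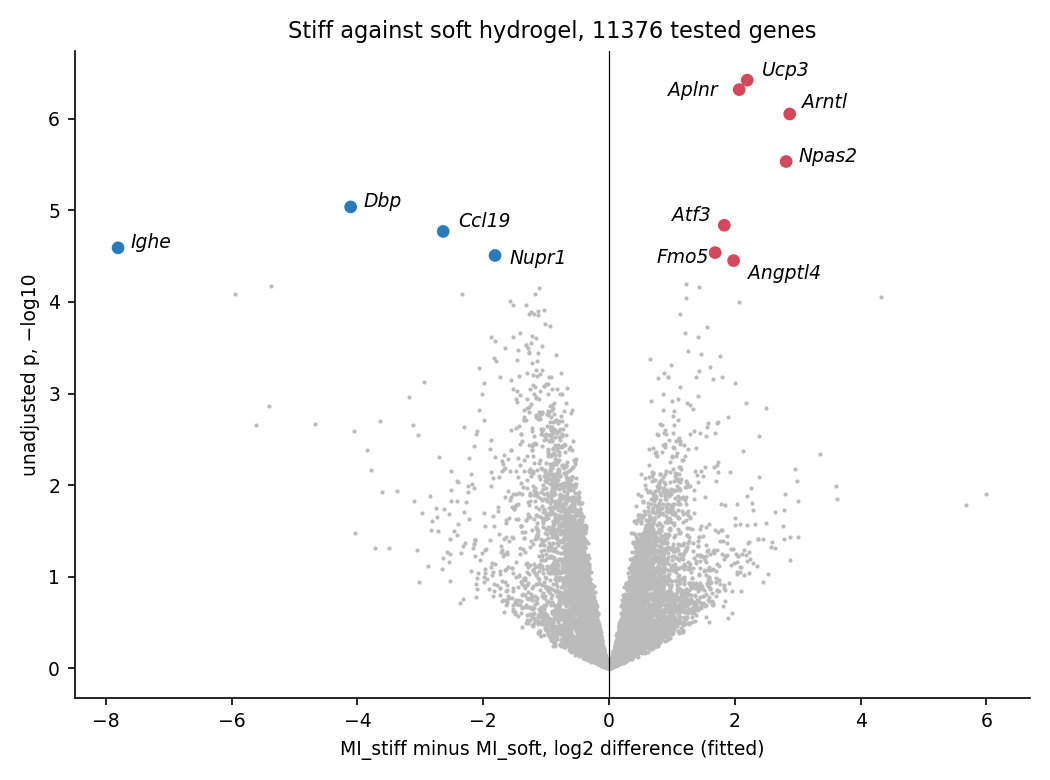
Each point is 1 of the 11376 tested genes, with the fitted log2 difference MI_stiff minus MI_soft on the x axis and the unadjusted p of edgeR's quasi-likelihood test as −log10 on the y axis. Red and blue points are the 7 genes called higher and the 4 called lower in MI_stiff at an adjusted p under 0.05, and grey points are the genes that were not called.

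Few genes passed the test between the gels. Of 11376 genes, 11 (0.0967%) were called changed by edgeR's quasi-likelihood test at an adjusted p under 0.05. The 7 higher in MI_stiff (0.0615%) were Ucp3, Aplnr, Arntl, Npas2, Atf3, Fmo5 and Angptl4, and the 4 lower (0.0352%) were Dbp, Ccl19, Ighe and Nupr1. A wider set of genes was separate between the gels without passing. The 4 libraries of one gel did not overlap those of the other for 1291 genes (11.3%), with MI_stiff above for 509 (4.47%) and below for 782 (6.87%), and 1631 genes (14.3%) had an unadjusted p under 0.05, 585 higher (5.14%) and 1046 lower (9.19%). These shares of all genes are the ones to set beside each count of list members below, apart from counts by DESeq2 or another fit. The next 13 genes shared an adjusted p of 0.0507, just above the threshold. The count depended on the method and on single libraries. DESeq2 called 93 genes higher and 185 lower of the 8711 that it gave an adjusted p. Each DESeq2 count of list members below is to be set beside these. A gene length offset in edgeR gave 11 higher and 16 lower, and leaving out 1 library at a time gave between 4 and 57 genes. When the 8 gel libraries were fitted without MI and Sham, 8 genes passed, of which 4 (Ucp3, Aplnr, Atf3 and Ighe) were among the 11, and the other 7 of the 11 had adjusted p values of 0.0699 to 0.108. Genes below that were not called are given as values, and those outside the called set and the tissue checks were chosen after their values were seen.

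Among the genes called higher were 2 that fatty acids are known to induce, Ucp3 and Angptl4. Ucp3 encodes an uncoupling protein of the mitochondrial inner membrane in muscle. Ucp3 measured 8.73, 15.2, 11.1 and 18.9 CPM in MI_stiff 1 to 4 and 2.84, 2.81, 3.70 and 2.34 CPM in MI_soft 1 to 4. All MI_stiff libraries lay above all MI_soft libraries, and the sham hearts, between 29.4 and 32.4 CPM, lay higher still. Ucp3 rose by 2.2 ± 0.28 (SE) on the log2 scale (edgeR adjusted p = 0.00273), and it was called in each of the 16 fits that left out 1 library, at adjusted p values of up to 0.0195.

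Angptl4 encodes a secreted protein that blocks lipoprotein lipase and so holds back fat uptake from blood. Its level was 59.2, 48.3, 40.7 and 49.0 CPM in MI_stiff 1 to 4 and 7.02, 7.45, 12.9 and 22.6 CPM in MI_soft 1 to 4. The groups were separate, with MI_soft 4 the nearest of the soft libraries. The rise was 1.98 ± 0.36 on the log2 scale (SE; edgeR adjusted p = 0.0365). The call was lost without MI_soft 1, 2 or 3 or any 1 MI_stiff library, at adjusted p values of 0.0613 to 0.114, and also without MI 4 (0.0524), Sham 3 (0.0564) or Sham 4 (0.0646).

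The other genes of fat use lay on both sides. Of the 29 tested genes of fatty acid uptake and oxidation, 2 were called higher and 0 lower, 4 lay above MI_soft and 2 below it without overlap, where 4.47% and 6.87% of all genes did. The median difference was 0.09 beside 0.01 over all genes, -0.01 without MI_soft 2 and 0.20 without MI_soft 4. Pdk4, a kinase that turns pyruvate away from oxidation when fat is burned, measured 74.0, 163, 135 and 119 CPM in MI_stiff and 48.2, 11.2, 62.8 and 0 CPM in MI_soft, with no count in MI_soft 4 (log2 difference 2.00 ± 0.83 SE, edgeR adjusted p = 0.292). Lpl, the lipoprotein lipase itself, measured 2481, 1941, 1863 and 2213 CPM in MI_stiff and 1428, 1018, 1424 and 551 CPM in MI_soft (log2 difference 0.94 ± 0.36 SE, edgeR adjusted p = 0.258). Cpt1b, which brings long-chain fatty acids into heart mitochondria, lay on the other side, at 185 to 248 CPM in MI_stiff and 259 to 351 CPM in MI_soft (edgeR adjusted p = 0.343).

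Aplnr, the apelin receptor, which is found on endothelial cells and heart muscle and is known for its part in vessel growth, was the vascular gene that passed the test. It measured 89.5, 179, 177 and 91.9 CPM in MI_stiff 1 to 4 and 34.9, 36.7, 32.8 and 23.4 CPM in MI_soft 1 to 4. MI_stiff 2 and 3 were at the level of the sham hearts (between 147 and 192 CPM), MI_stiff 1 and 4 were lower, and all 4 lay above every MI_soft and every MI library (between 33.2 and 64.7 CPM). Aplnr rose by 2.07 ± 0.27 (SE) on the log2 scale (edgeR adjusted p = 0.00273) and kept its call in all 16 fits without 1 library, with adjusted p values of up to 0.0195.

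Around it, endothelial genes leaned towards MI_stiff, and as in all bulk tissue, fewer cells of a type and less RNA per cell cannot be told apart. Of 23 tested markers of blood vessel endothelium, 20 had a difference above 0 (50.4% of all genes did). Without overlap 3 lay above MI_soft, beside 4.47% of all genes. The median was 0.35, 0.48 without MI_soft 4, 0.25 without MI_stiff 3 and 0.28 with the gene length offset. By edgeR 0 were called (5 had an unadjusted p under 0.05, all higher, and DESeq2 called 2 higher). Dll4, the Notch ligand of sprouting tip cells, measured 32.2, 44.4, 51.8 and 64.9 CPM in MI_stiff and 30.1, 15.3, 25.0 and 18.4 CPM in MI_soft (log2 difference 1.12 ± 0.28 SE, edgeR adjusted p = 0.102). Sele, the E-selectin that slows white cells on activated endothelium, measured 5.05, 17.1, 7.11 and 15.2 CPM against 2.47, 4.03, 5.02 and 1.25 CPM (log2 difference 1.79 ± 0.43 SE, edgeR adjusted p = 0.092). For both genes every MI_stiff library was above every MI_soft library, with MI_stiff 1 the nearest to the soft range. Tek, the receptor for angiopoietins, ranged over 89.5 to 145 CPM in MI_stiff and 35.6 to 74.5 CPM in MI_soft, where MI_soft 4 was the lowest (adjusted p = 0.245).

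Among the 24 tested angiogenic and hypoxia response genes, Aplnr was the 1 called, 19 were above 0 and the median was 0.43. Ndrg1, a hypoxia-induced gene, measured 185, 122, 218 and 249 CPM in MI_stiff and 77.1, 101, 72.8 and 79.9 CPM in MI_soft (log2 difference 1.23 ± 0.24 SE, edgeR adjusted p = 0.0507). Hif1a, the oxygen-sensing transcription factor subunit, lay at 61.3 to 106 CPM in MI_stiff and 12.5 to 56.6 CPM in MI_soft, again with MI_soft 4 lowest. Cxcl12, a chemokine that holds and draws stem and immune cells, measured 205, 219, 188 and 176 CPM in MI_stiff and 63.7, 136, 70.8 and 65.7 CPM in MI_soft (log2 difference 1.23 ± 0.24 SE, edgeR adjusted p = 0.0507). MI_soft 2 was the highest soft library for Cxcl12 and still lay below all MI_stiff libraries, while the MI libraries (between 149 and 235 CPM) overlapped MI_stiff. Rgs4, a brake on G-protein signalling found in pericytes, lay at 65.1 to 84.0 CPM in MI_stiff and 25.9 to 46.4 CPM in MI_soft (adjusted p = 0.0513).

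**Figure D2:**
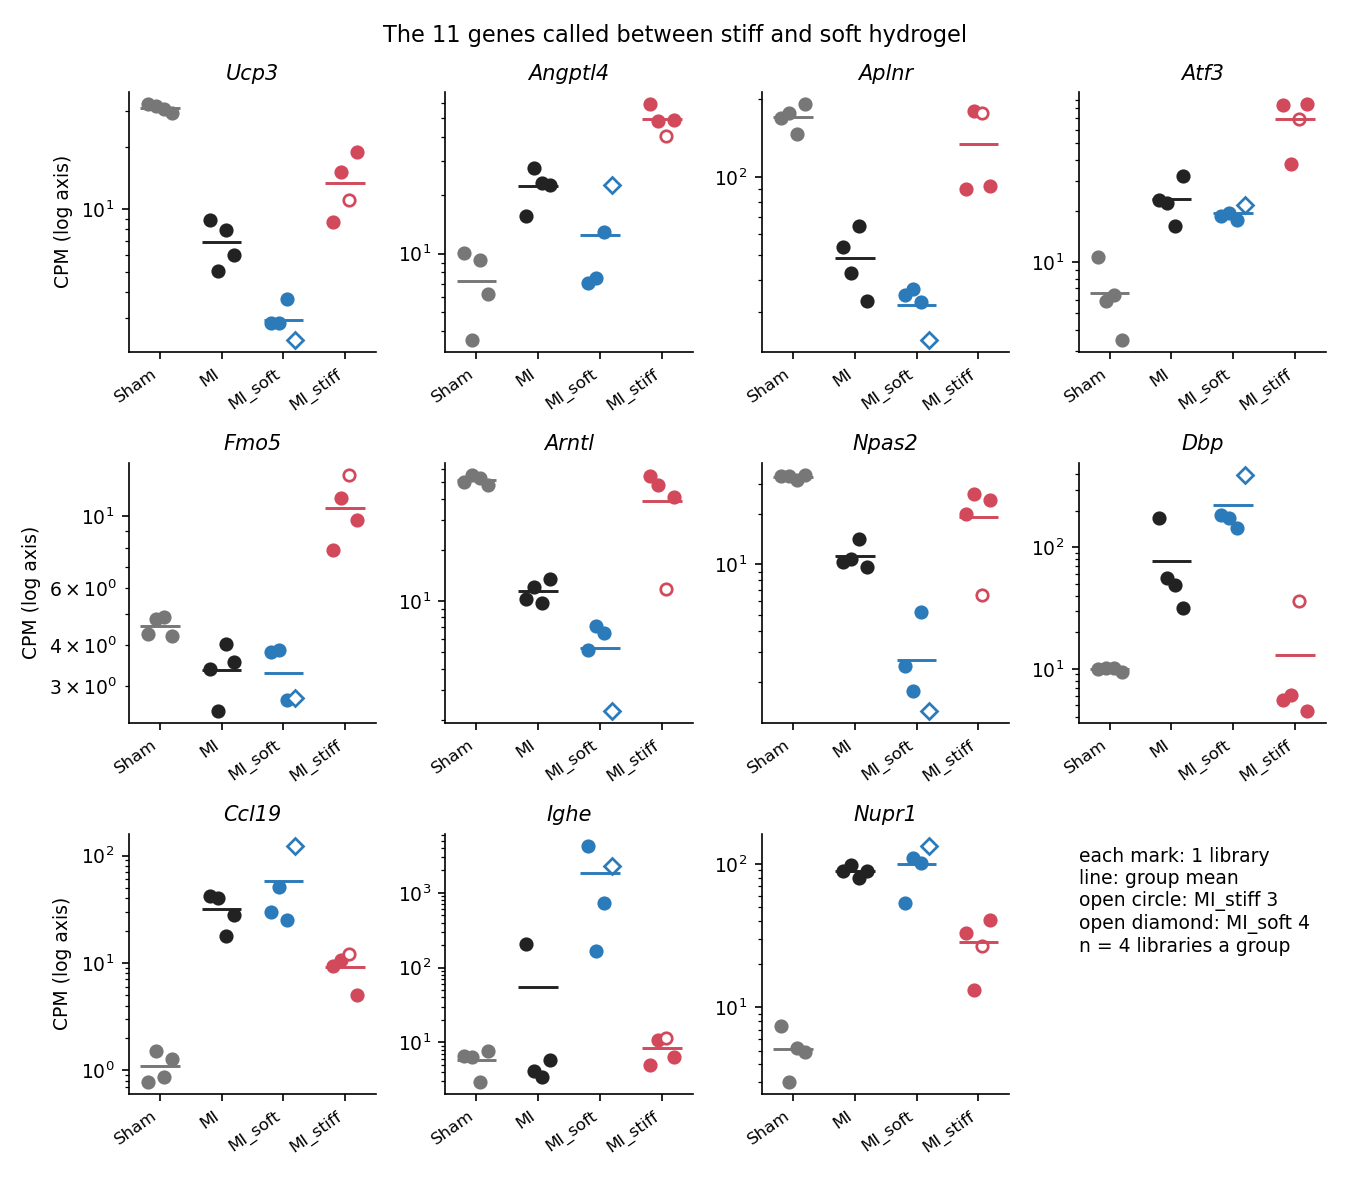
CPM on a log axis of the 11 called genes in the 4 groups; each mark is 1 library, the line is the group mean (n = 4), the open circle is MI_stiff 3 and the open diamond MI_soft 4. In each panel the 4 MI_stiff libraries lie wholly above or wholly below the 4 MI_soft libraries, with MI_stiff above for 7 genes and below for 4.

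The circadian clock supplied 3 of the 11 calls, in both directions. In this feedback loop Arntl (now named Bmal1) pairs with Clock or Npas2 and drives genes through a DNA element called the E-box, among them the period and cryptochrome repressors, Nr1d1, Ciart and the transcription factors Dbp and Tef, while Nr1d1 in turn represses Arntl through an element shared with the ROR receptors. The promoters of 4 members are shown because they carry these letters: 250 bases before the annotated start, from RefSeq on build GRCr8, whereas the deposited values were made on rn7. Capitals mark TAGGTCA in Arntl (chr1:176766078-176766327, plus strand) and CACGTG in Nr1d1 (chr10:84229455-84229704, minus strand, 1 of 2 listed starts), Ciart (chr2:186112247-186112496, minus strand) and Tef (chr7:115206577-115206826, plus strand).
Arntl: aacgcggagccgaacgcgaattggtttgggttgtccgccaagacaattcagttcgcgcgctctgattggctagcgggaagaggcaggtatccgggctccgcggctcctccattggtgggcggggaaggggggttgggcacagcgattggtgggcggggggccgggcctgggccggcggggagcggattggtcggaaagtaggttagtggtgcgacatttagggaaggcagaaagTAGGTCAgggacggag
Nr1d1: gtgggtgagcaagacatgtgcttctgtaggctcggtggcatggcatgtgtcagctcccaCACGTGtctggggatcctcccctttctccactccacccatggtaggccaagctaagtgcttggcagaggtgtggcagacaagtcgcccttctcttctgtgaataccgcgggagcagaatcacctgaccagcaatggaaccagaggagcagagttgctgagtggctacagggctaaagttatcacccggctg
Ciart: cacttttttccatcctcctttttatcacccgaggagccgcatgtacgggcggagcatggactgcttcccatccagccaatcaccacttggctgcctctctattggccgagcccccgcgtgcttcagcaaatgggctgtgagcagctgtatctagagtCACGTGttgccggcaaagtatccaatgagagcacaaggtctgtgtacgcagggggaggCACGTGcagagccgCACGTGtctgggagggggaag
Tef: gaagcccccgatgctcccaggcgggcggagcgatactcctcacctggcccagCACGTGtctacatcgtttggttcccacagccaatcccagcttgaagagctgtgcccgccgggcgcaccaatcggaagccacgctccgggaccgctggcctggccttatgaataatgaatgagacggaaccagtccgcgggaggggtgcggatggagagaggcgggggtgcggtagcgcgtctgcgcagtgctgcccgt
The 3 matches in Ciart begin 93, 35 and 21 bases before its start, and the match in Arntl begins 16 bases before. On either strand of the same window, CACGTG was in 5.59% and TAGGTCA in 2.26% of all 33469 listed promoters. Of the 19 tested clock genes, 16 had a listed promoter, of which 4 held CACGTG (Bhlhe40 beside the 3 shown) and 1 held TAGGTCA. Bhlhe40 differed by -0.09 between the gels on the log2 scale. Of the 8 called genes with a listed promoter, 1 held CACGTG, namely Nupr1, which is not a clock gene. Dbp and Npas2 held neither in this window, and a match is a description of letters, not a site.

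Arntl measured 54.3, 48.2, 11.8 and 40.6 CPM in MI_stiff 1 to 4 and 5.15, 7.15, 6.48 and 2.26 CPM in MI_soft 1 to 4. MI_stiff 1, 2 and 4 were near the sham hearts (between 48.3 and 55.2 CPM), MI_stiff 3 was closer to the MI hearts (between 9.76 and 13.5 CPM), and every MI_soft library was below all of these. The rise was 2.87 ± 0.39 on the log2 scale (SE; edgeR adjusted p = 0.00336). Npas2, a relative of Clock that can take its place beside Arntl, measured 19.8, 26.3, 6.54 and 24.1 CPM in MI_stiff and 2.47, 1.75, 5.22 and 1.34 CPM in MI_soft. MI_stiff 3 was again the lowest stiff library and only just above the highest soft one, and the rise was 2.82 ± 0.42 on the log2 scale (SE; edgeR adjusted p = 0.00833). Both were called in all 16 fits that left out a library (adjusted p up to 0.0195 for Arntl and 0.0421 for Npas2), though not with the gel libraries alone (0.0699 and 0.0813).

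Dbp, a transcription factor with one of the widest daily swings, moved the opposite way. It measured 5.51, 6.03, 36.2 and 4.50 CPM in MI_stiff 1 to 4 and 185, 175, 145 and 397 CPM in MI_soft 1 to 4. MI_stiff 1, 2 and 4 were below even the sham hearts (between 9.43 and 10.2 CPM), and MI_stiff 3 lay between them and MI_soft. Dbp fell by 4.11 ± 0.67 (SE) on the log2 scale (edgeR adjusted p = 0.0209). Its call was lost without MI_stiff 1 (0.051), 2 (0.0675) or 4 (0.107) and without MI_soft 4 (0.0517; 0.121 for the other gel libraries fitted alone), while without MI_stiff 3 the adjusted p was 0.000273.

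Of the 19 tested clock genes, 2 were called higher and 1 lower. In all, 2 lay wholly above and 5 wholly below MI_soft, where 4.47% and 6.87% of all genes did. Nr1d1, the repressor of Arntl, measured 29.4, 65.7, 47.6 and 44.3 CPM in MI_stiff and 178, 147, 181 and 438 CPM in MI_soft (log2 difference -2.34 ± 0.46 SE, edgeR adjusted p = 0.0507). Ciart, a repressor of Clock and Arntl, ranged over 0 to 2.46 CPM in MI_stiff and 4.69 to 8.53 CPM in MI_soft (log2 difference -3.04 ± 0.88 SE, edgeR adjusted p = 0.138). Tef, a relative of Dbp, measured 77.5, 93.5, 145 and 94.1 CPM in MI_stiff and 232, 188, 198 and 215 CPM in MI_soft (log2 difference -1.02 ± 0.22 SE, edgeR adjusted p = 0.0616). For each of these 3 genes the groups did not overlap, and for Ciart and Tef the MI_stiff library nearest to MI_soft was MI_stiff 3.

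The repressors themselves were less clear. Per1 measured 31.4, 42.5, 81.5 and 35 CPM in MI_stiff and 87.2, 80.6, 102 and 139.8 CPM in MI_soft, where MI_stiff 3 overlapped the soft libraries (log2 difference -1.11 ± 0.30 SE, edgeR adjusted p = 0.124). Per2 and Per3 overlapped more, since MI_stiff 3 was high (87.8 and 21.7 CPM) and MI_soft 4 low (37.0 and 4.68 CPM), with adjusted p values of 0.459 and 0.716. Cry1 leaned the other way, at 14.8 to 30.6 CPM in MI_stiff and 5.52 to 18.9 CPM in MI_soft (adjusted p = 0.279). Cry1 is thus the repressor with more RNA in MI_stiff by its mean, with overlapping libraries. Cry2 lay wholly below, at 51.7 to 57.2 and 59.1 to 72.4 CPM (adjusted p = 0.332). Nfil3, which competes with Dbp for its sites, measured 20.2, 19.6, 10.3 and 21.9 CPM in MI_stiff and 10.2, 10.3, 8.52 and 20.6 CPM in MI_soft, with MI_stiff 3 at the soft level and MI_soft 4 at the stiff level.

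**Figure D3:**
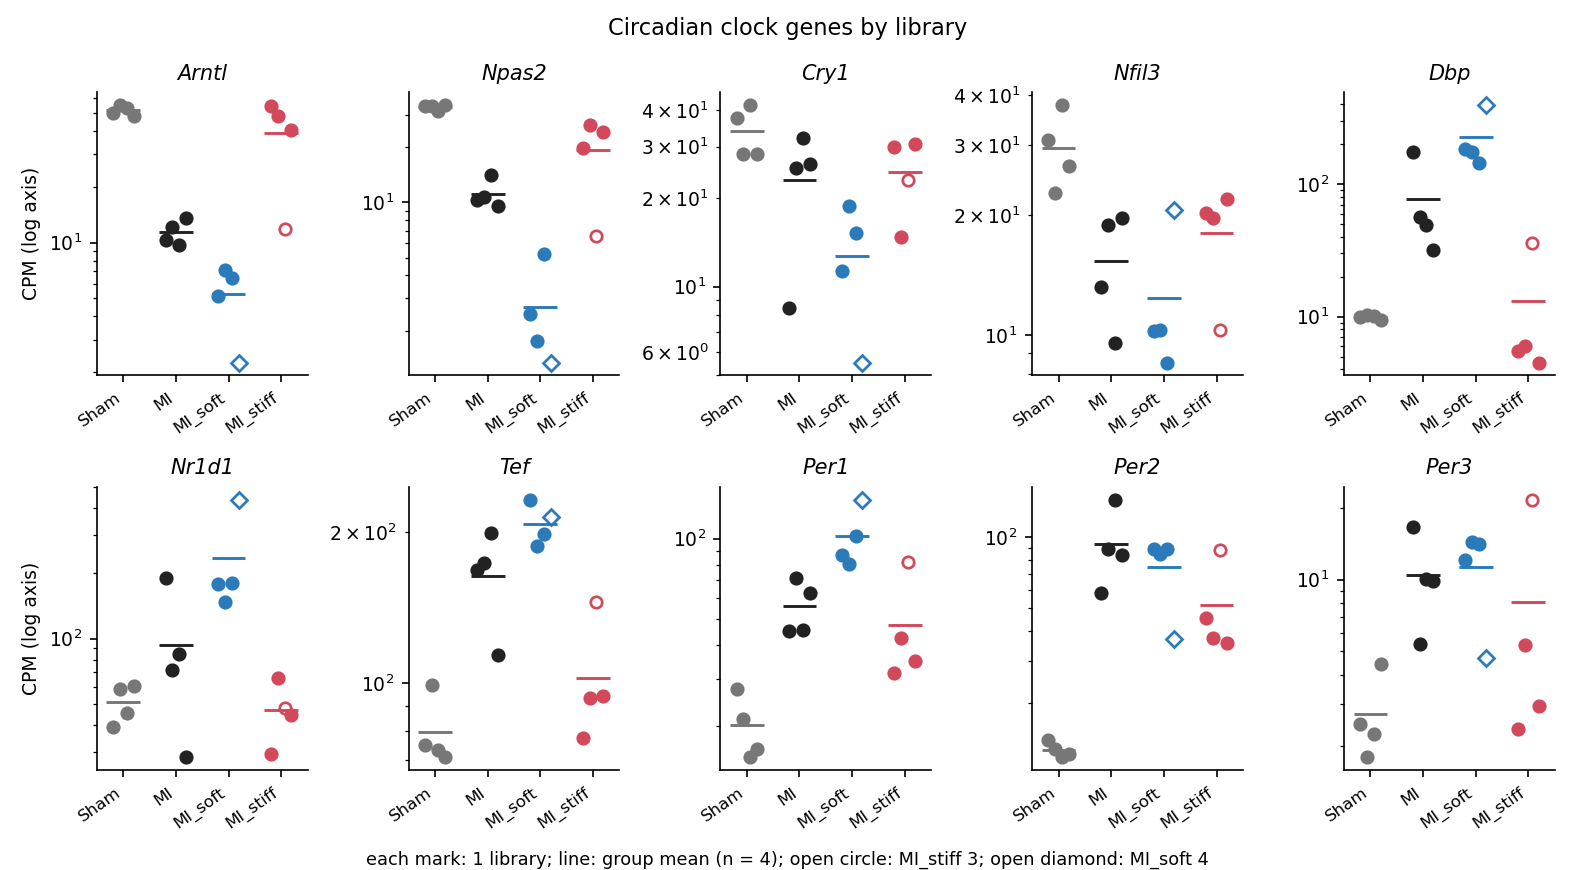
CPM on a log axis of 10 clock genes in the 4 groups, 1 mark per library with the group mean as a line (n = 4); the open circle is MI_stiff 3 and the open diamond MI_soft 4. MI_stiff 1, 2 and 4 lie near the Sham range for Arntl, within it for Tef, and between MI and Sham for Npas2. For Nr1d1, MI_stiff 1 lies below and MI_stiff 2 above the Sham range. MI_stiff 3 lies outside the range of the other 3 stiff libraries for 8 of the 10 genes, all but Cry1 and Nr1d1.

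The widest difference of any called gene was in antibody transcripts. Ighe, listed as the immunoglobulin heavy chain epsilon constant gene, measured 4.90, 10.6, 11.5 and 6.45 CPM in MI_stiff 1 to 4 and 4273, 166, 731 and 2309 CPM in MI_soft 1 to 4. The MI_stiff libraries were low, as were the sham hearts (between 2.95 and 7.53 CPM), and the MI_soft libraries were all higher but spread widely, from MI_soft 2 to MI_soft 1. Ighe fell by 7.80 ± 1.39 (SE) on the log2 scale (edgeR adjusted p = 0.0354). Heavy chain genes lie in 1 cluster with near-identical parts, so which of them gave these reads is uncertain. The call was lost without any 1 gel library other than MI_soft 2, at adjusted p values of 0.0703 to 0.147, and without any 1 Sham library, at 0.0507 to 0.0646.

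Other genes of antibody-making cells were separate in the same direction without passing. Jchain, which links antibody units into larger ones, measured 5.43, 2.49, 2.39 and 1.75 CPM in MI_stiff and 259, 31.4, 157 and 53.3 CPM in MI_soft (log2 difference -5.37 ± 1.04 SE, edgeR adjusted p = 0.0507). Mzb1, a chaperone of antibody assembly in plasma cells, measured 0.383, 0, 0.915 and 0.134 CPM in MI_stiff and 31.5, 5.48, 27.5 and 27.4 CPM in MI_soft (log2 difference -5.95 ± 1.17 SE, edgeR adjusted p = 0.0507). The groups were separate for both, and MI_soft 2 was the lowest soft library for Jchain and Mzb1 as it was for Ighe. Of B cell surface markers, Ms4a1 (CD20) ranged over 0 to 0.211 CPM in MI_stiff and 1.44 to 7.92 CPM in MI_soft, and Cd79a, part of the B cell receptor, over 0.0672 to 0.352 and 0.608 to 7.17 CPM. Pou2af1, a B cell coactivator, ranged over 0 to 1.01 CPM in MI_stiff and 2.21 to 20.4 CPM in MI_soft. These levels in MI_stiff rest on a few counts per library. Xbp1, the plasma cell stress regulator that other secretory cells also use, overlapped, at 87.2 to 142 and 136 to 204 CPM.

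Ccl19, a chemokine of lymphoid tissue that draws T cells, B cells and dendritic cells, was called lower. It measured 9.26, 10.6, 12 and 4.97 CPM in MI_stiff 1 to 4 and 29.5, 51.4, 25.0 and 123 CPM in MI_soft 1 to 4. The groups did not overlap, MI_soft 4 was the highest, and the MI hearts (between 17.9 and 41.7 CPM) lay above all MI_stiff libraries. Ccl19 fell by 2.64 ± 0.45 (SE) on the log2 scale (edgeR adjusted p = 0.0276), and without MI_soft 4 by 1.92 (0.0537). The call was also lost without any 1 MI_stiff library, at 0.0538 to 0.123, and without Sham 3 (0.0542) or Sham 4 (0.0532). Ccl21, which binds the same receptor and is made by lymphatic vessels, lay at 32.7 to 64.9 CPM in MI_stiff and 91.4 to 257 CPM in MI_soft (adjusted p = 0.117).

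Of 19 tested B cell and antibody genes, 18 were below 0 (49.6% of all genes were) and 1, Ccl19, was called. Without overlap 10 lay below MI_soft, beside 6.87% of all genes. Ighe is not on the list. Their median difference was -2.64, -2.46 without MI_soft 4 and -2.36 with the gene length offset. In the fit without the 4 libraries with the fewest genes detected (MI 2, MI 3, MI 4 and MI_soft 4), 8 of them were called lower. That fit, added after the data were seen, called 152 of all 12098 genes lower. The summed level of the 23 markers with a row was 200.3 to 278 CPM in MI_stiff and 546 to 876 CPM in MI_soft, and 3 of these (Cr2, Pax5 and Tnfrsf13c) had no count in any MI_stiff library. What part a difference in these cells has in other results was not tested. The filter on low counts works by group, so a gene near 0 elsewhere, such as Mzb1, enters through MI_soft alone. The direction of such members was largely set by the filter, so the list's counts and median are a description and not a test. Fcmr, the receptor for antibody of the M class, measured 7.88, 7.08, 4.85 and 3.43 CPM in MI_stiff and 15.2, 17.6, 12 and 35.4 CPM in MI_soft (log2 difference -1.79 ± 0.42 SE, edgeR adjusted p = 0.0828).

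**Figure D4:**
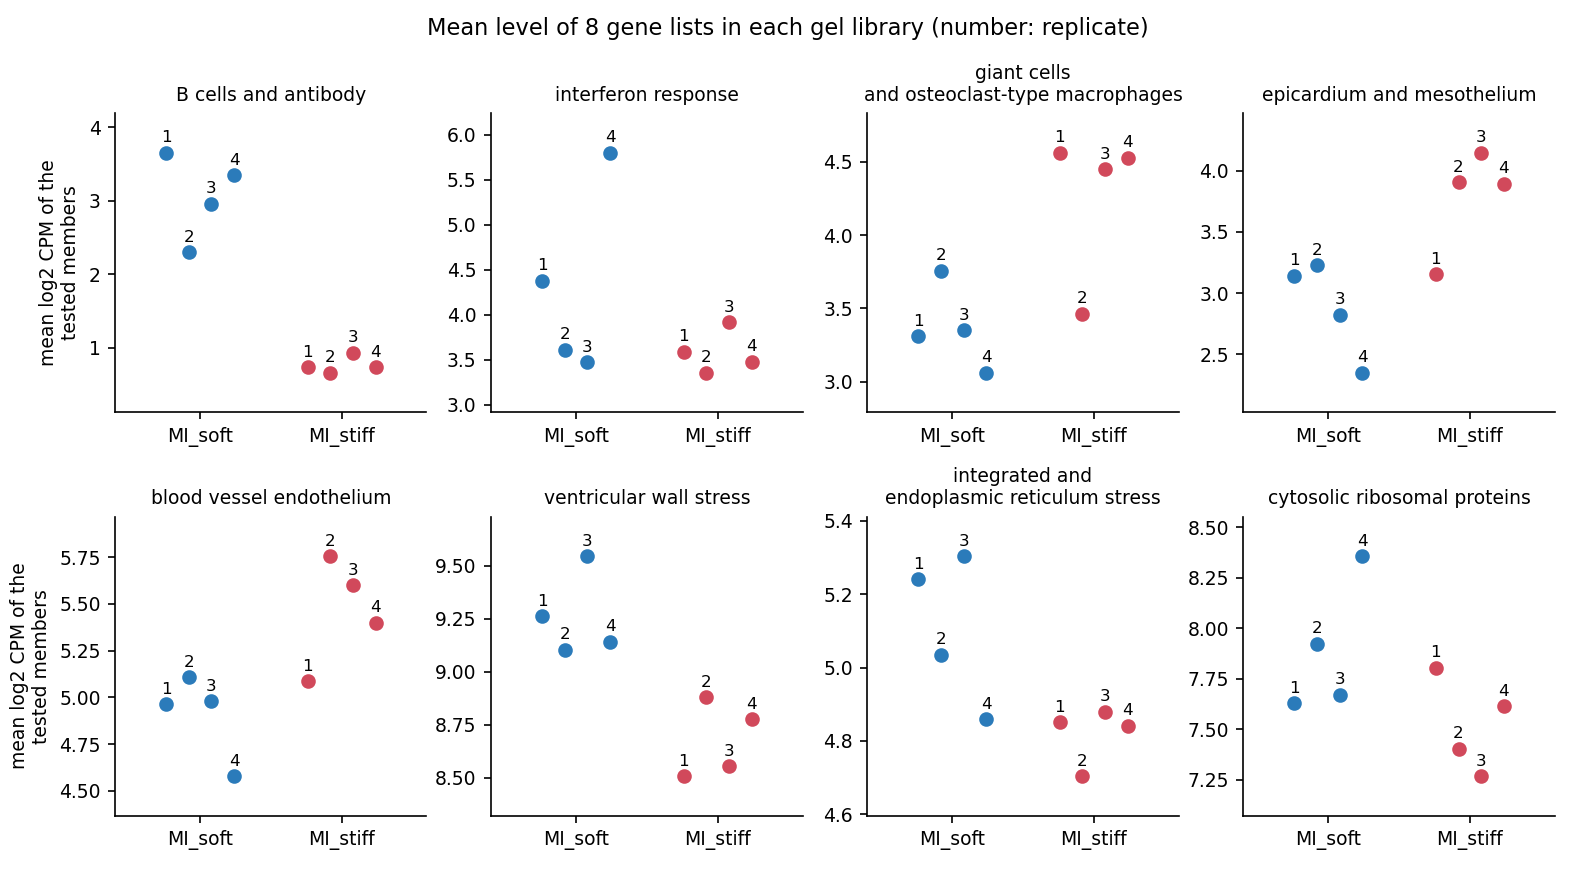
Mean log2 CPM of the tested members of 8 gene lists in each gel library, with the replicate number at each point. The lists differ in whether single libraries overlap: MI_soft and MI_stiff are separate for B cells and for wall stress, MI_soft 4 is far above the rest for interferon genes, and MI_stiff 2 is within the MI_soft range for giant cell genes.

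T cell genes leaned the same way at low levels, with a summed level of 32.2 to 82.7 CPM in MI_stiff and 105 to 259.8 CPM in MI_soft over 24 markers, none of them at 0 in every MI_stiff library. Of 22 tested T and natural killer cell genes, 19 were below 0. In all, 6 lay below MI_soft without overlap, beside 6.87% of all genes. The median was -1.20, and -0.67 without MI_soft 4. None was called by edgeR or DESeq2, and 6 had an unadjusted p under 0.05. The limit that the filter sets for B cell genes may also hold for members of this list near 0 in MI_stiff. Cd3g, a chain of the T cell receptor complex, measured 0.230, 0.161, 1.13 and 1.68 CPM in MI_stiff and 1.72, 3.27, 5.88 and 6.52 CPM in MI_soft (log2 difference -2.42 ± 1.06 SE, edgeR adjusted p = 0.319). Cd4, which macrophages of the rat also carry, measured 18, 16, 26.4 and 44.9 CPM in MI_stiff and 53.6, 54.9, 41.2 and 118 CPM in MI_soft (log2 difference -1.35 ± 0.60 SE, edgeR adjusted p = 0.323). MI_soft 4 was the highest library for both.

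The difference in interferon genes was carried mostly by 1 library. Irf7, a master regulator of the type I interferon answer, measured 128, 57.0, 36.7 and 1471 CPM in MI_soft 1 to 4 and 35.4, 54.5, 44.1 and 53.5 CPM in MI_stiff 1 to 4. MI_soft 4 was far above every other gel library, and the other 3 overlapped MI_stiff. The median of 34 tested interferon response genes was -1.0 with all libraries and -0.14 without MI_soft 4. The edgeR test called none of them (1 had an unadjusted p under 0.05 higher and 17 lower), and DESeq2 called 3 lower. Without MI_soft 4 the median of 12 MHC class II presentation genes went from -0.81 to -0.22, and that of 24 macrophage and monocyte markers from -0.53 to -0.16. None of either list was called by edgeR or DESeq2, and 3 and 3 had an unadjusted p under 0.05, all lower. Cd74, the chaperone of MHC class II, measured 944, 1122, 717 and 2309 CPM in MI_soft and 852, 161, 851 and 439.8 CPM in MI_stiff, with MI_soft 4 highest and MI_stiff 2 lowest. Cd68, a general macrophage marker, overlapped widely, at 24.1 to 116 CPM in MI_stiff and 33.2 to 137 CPM in MI_soft.

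A set of macrophage genes was high in 3 of the 4 stiff gel libraries. Arg1, the arginase of repair-type macrophages, measured 84.0, 2.01, 105 and 32.4 CPM in MI_stiff 1 to 4 and 2.54, 5.32, 1.26 and 2.01 CPM in MI_soft 1 to 4. MI_stiff 2 was within the soft range, and the other 3 were far above it (log2 difference 4.33 ± 0.86 SE, edgeR adjusted p = 0.0507). Gpnmb, a glycoprotein of lipid-laden macrophages, measured 1017, 273, 1343 and 1337 CPM in MI_stiff and 258, 514, 234 and 342 CPM in MI_soft, again with MI_stiff 2 inside the soft range (log2 difference 1.56 ± 0.44 SE, edgeR adjusted p = 0.138). Il1rn, the natural blocker of interleukin 1, measured 142, 10.8, 114 and 122 CPM in MI_stiff and 15.2, 36.2, 13.8 and 20.6 CPM in MI_soft (log2 difference 2.18 ± 0.57 SE, edgeR adjusted p = 0.117).

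Ocstamp, a gene of macrophage fusion, shared this split, as did Mmp12 and Spp1. Ocstamp, a membrane protein needed for fusion, measured 12.6, 0.483, 23.1 and 15.2 CPM in MI_stiff and 2.61, 3.42, 0.595 and 0.836 CPM in MI_soft (log2 difference 2.78 ± 1.05 SE, edgeR adjusted p = 0.26). Mmp12, the macrophage elastase, measured 665, 146, 785 and 646 CPM in MI_stiff and 71.1, 265, 67.1 and 65.7 CPM in MI_soft (log2 difference 2.26 ± 0.77 SE, edgeR adjusted p = 0.213). Spp1, osteopontin, measured 408, 95.1, 600.2 and 292 CPM in MI_stiff and 83.0, 198, 161 and 40.2 CPM in MI_soft (log2 difference 1.53 ± 0.50 SE, edgeR adjusted p = 0.194). In each of these 3 genes MI_stiff 2 was the lowest stiff library, and through it the groups overlapped. Of 12 tested giant cell and osteoclast-type genes, 10 were above 0, and 2 lay above MI_soft without overlap, beside 4.47% of all genes. The median was 0.93, and 0.92 without MI_soft 4. None was called by edgeR (6 had an unadjusted p under 0.05, all higher, and DESeq2 called 2 higher). Tnfrsf11b, the osteoprotegerin that blocks osteoclast formation, was above without overlap, at 25.7 to 41.9 CPM in MI_stiff and 4.60 to 19.1 CPM in MI_soft (log2 difference 1.45 ± 0.42 SE, edgeR adjusted p = 0.138). Of 20 lipid-laden macrophage genes, 16 were above 0 and 4 below, with a median of 0.48. Ctsl, a lysosomal protease, lay at 457 to 687 against 321 to 398 CPM without overlap (log2 difference 0.71 ± 0.21 SE, edgeR adjusted p = 0.156). The most abundant member of this list, Apoe, had its lowest log2 difference, -0.78. In the giant cell list the most abundant member, Cd81, was likewise the lowest, at -0.17.

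Hmox1, the enzyme that breaks down heme and is induced by oxidative stress, measured 128, 83.6, 94.0 and 84.2 CPM in MI_stiff and 42.4, 48.0, 31.1 and 22.6 CPM in MI_soft (log2 difference 1.44 ± 0.28 SE, edgeR adjusted p = 0.0507). All MI_stiff libraries, MI_stiff 2 included, were above all MI_soft and all MI libraries (between 14.4 and 35 CPM). A pair of other antioxidant genes was separate on the opposite side: Prdx6, a peroxide-removing enzyme, at 149 to 178 CPM in MI_stiff and 229 to 298 CPM in MI_soft (log2 difference -0.66 ± 0.17 SE, edgeR adjusted p = 0.102), and Sod3, the secreted superoxide dismutase, at 109.9 to 157 and 169 to 444 CPM (log2 difference -1.08 ± 0.29 SE, edgeR adjusted p = 0.127). Of 26 tested antioxidant genes, 16 were above and 10 below 0 with a median of 0.18. Without overlap 1 lay above MI_soft and 4 below it, beside 4.47% and 6.87% of all genes. None was called by edgeR (2 had an unadjusted p under 0.05 higher and 6 lower), and DESeq2 called 1 higher and 4 lower.

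Stress regulators split in direction. Atf3, a transcription factor induced early by many stresses, measured 84.4, 37.9, 69.0 and 85.2 CPM in MI_stiff 1 to 4 and 18.7, 19.4, 17.7 and 21.7 CPM in MI_soft 1 to 4. All stiff libraries were above all soft, MI and sham libraries, and MI_stiff 2 was the lowest of them. Atf3 rose by 1.83 ± 0.31 (SE) on the log2 scale (edgeR adjusted p = 0.0275). The call was lost without any 1 gel library other than MI_stiff 2, at 0.051 to 0.107. Of 26 tested immediate early genes Atf3 was the 1 called, and the median was -0.20, -0.34 without MI_stiff 3 and -0.09 without MI_stiff 2. Klf2, a flow-responsive endothelial factor in that list, lay below, at 44.4 to 115 CPM in MI_stiff and 116 to 181 CPM in MI_soft (adjusted p = 0.331).

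Nupr1, a small nuclear protein switched on by Atf4 under stress, measured 33.1, 13.1, 26.9 and 40.4 CPM in MI_stiff 1 to 4 and 53.4, 110.5, 101 and 133 CPM in MI_soft 1 to 4. The groups did not overlap, and the MI hearts (between 79.7 and 98.7 CPM) were within the soft range. Nupr1 fell by 1.81 ± 0.33 (SE) on the log2 scale (edgeR adjusted p = 0.0354). The call was lost without any 1 gel library other than MI_soft 1, at 0.0539 to 0.0988, and without MI 4 (0.0534), Sham 3 (0.0672) or Sham 4 (0.0646).

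Genes of the integrated and endoplasmic reticulum stress responses, a list that does not hold Nupr1, leaned the same way. Of 30 tested genes, 23 were below 0 and 9 lay below MI_soft without overlap, beside 6.87% of all genes, and 0 above. The median was -0.41, -0.37 without MI_soft 4 and -0.35 with the length offset. None was called by edgeR (13 had an unadjusted p under 0.05, all lower), and DESeq2 called 7 lower (185 of 8711 over all genes). Atf4, the central factor of the integrated stress response, measured 143, 98.5, 129 and 91.6 CPM in MI_stiff and 204, 179, 198 and 221 CPM in MI_soft (log2 difference -0.80 ± 0.22 SE, edgeR adjusted p = 0.132). Atf5, a related factor, measured 117, 110.3, 92.9 and 104 CPM in MI_stiff and 167, 212, 226 and 322 CPM in MI_soft (log2 difference -1.13 ± 0.26 SE, edgeR adjusted p = 0.0775). For both genes the lowest soft library was above the highest stiff library. Manf, a factor released under endoplasmic reticulum stress, lay at 27.3 to 46.8 CPM against 58.8 to 75.5 CPM (log2 difference -0.94 ± 0.20 SE, edgeR adjusted p = 0.0623), and Herpud1, which clears misfolded proteins there, at 126 to 203 against 220.4 to 321 CPM (log2 difference -0.75 ± 0.19 SE, edgeR adjusted p = 0.107).

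Heat shock genes leaned downward too. Of 18 tested heat shock and cold-inducible genes, 7 lay below MI_soft without overlap and 1 above, beside 6.87% and 4.47% of all genes. The median was -0.30. By edgeR none was called (2 had an unadjusted p under 0.05 higher and 8 lower), and DESeq2 called 1 higher and 5 lower (93 and 185 of 8711 over all genes). Stip1, which hands clients from one chaperone to the next, measured 32.8, 26.9, 48.0 and 36.2 CPM in MI_stiff and 72.2, 72.1, 68.3 and 97.6 CPM in MI_soft (log2 difference -1.11 ± 0.21 SE, edgeR adjusted p = 0.0507). Hspa8, a constitutive chaperone that Stip1 binds, lay at 112 to 177 against 200.2 to 278 CPM (log2 difference -0.78 ± 0.20 SE, edgeR adjusted p = 0.107), and Hsf1, the master factor of the heat shock response, at 12.2 to 15.8 against 20.3 to 40.2 CPM (log2 difference -0.99 ± 0.27 SE, edgeR adjusted p = 0.127). Cirbp, an RNA-binding protein that cold induces and that also swings with the day, was the member above, at 29.8, 35.1, 24.3 and 45.0 CPM in MI_stiff and 16.1, 20.4, 17.5 and 13.7 CPM in MI_soft (log2 difference 0.99 ± 0.23 SE, edgeR adjusted p = 0.087).

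Fmo5, a flavin monooxygenase of drug and lipid metabolism, was the remaining called gene. It measured 7.88, 11.4, 13.4 and 9.74 CPM in MI_stiff 1 to 4 and 3.81, 3.88, 2.71 and 2.76 CPM in MI_soft 1 to 4. All stiff libraries lay above all others in the study, sham hearts included (between 4.28 and 4.89 CPM). Fmo5 rose by 1.69 ± 0.30 (SE) on the log2 scale (edgeR adjusted p = 0.0354). The call was lost without any 1 gel library other than MI_stiff 1, at 0.0532 to 0.107, and without any 1 Sham library, at 0.0558 to 0.0646.

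**Figure D5:**
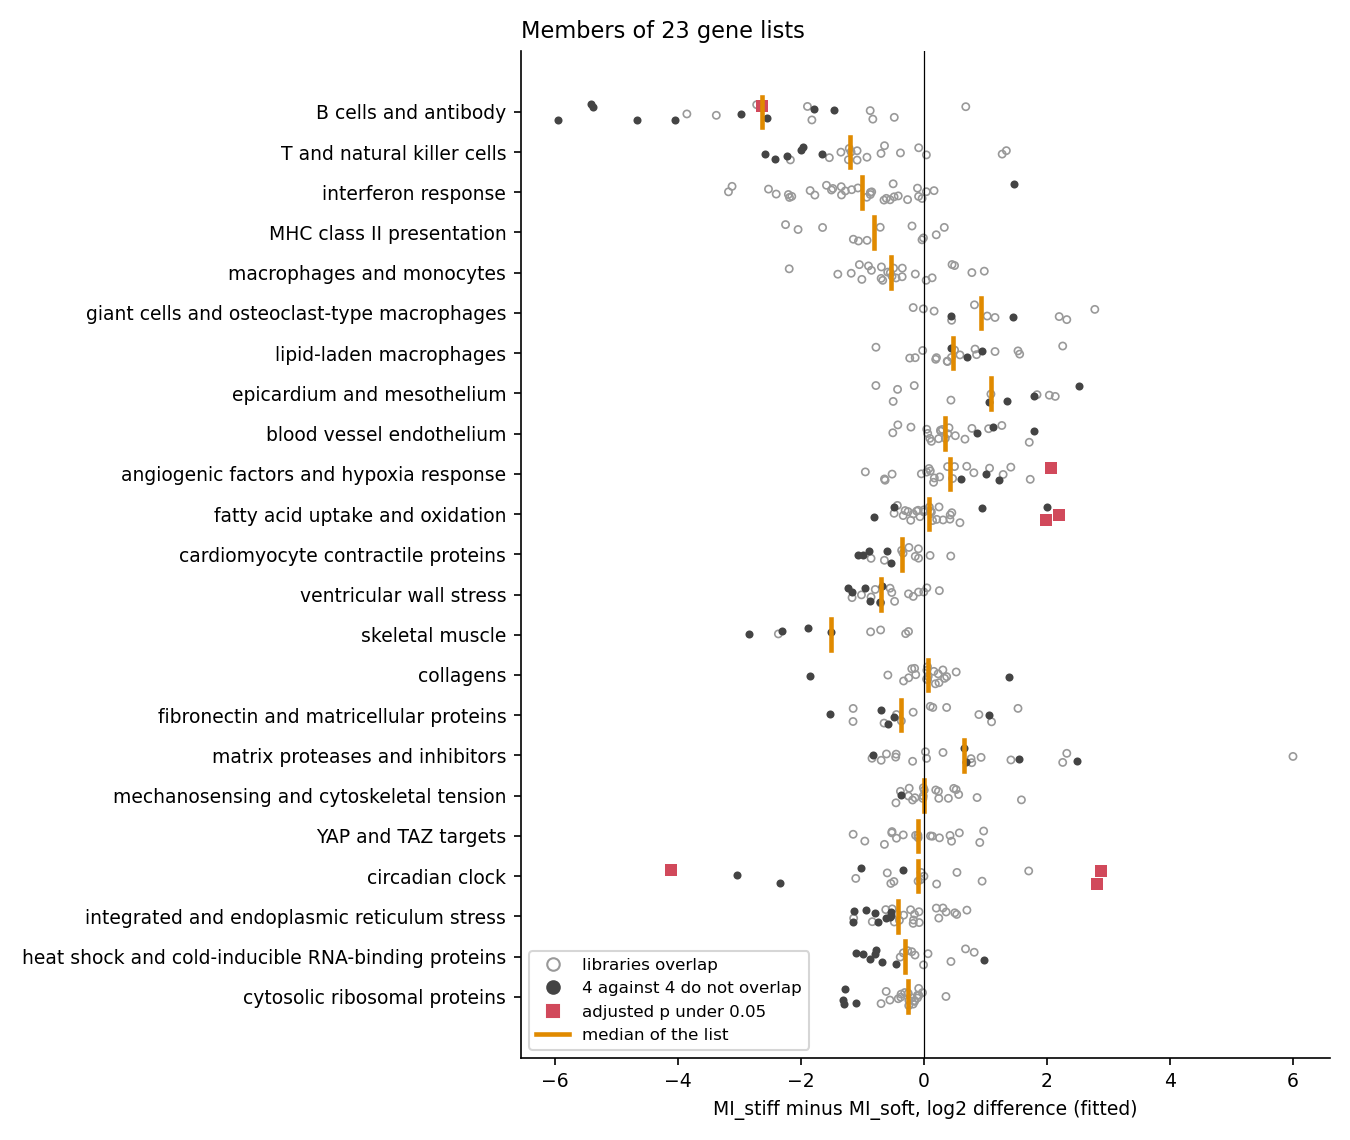
Fitted log2 difference MI_stiff minus MI_soft of each tested member of 23 gene lists; open points are genes whose 4 against 4 libraries overlap, filled points do not overlap, red squares passed an adjusted p of 0.05, and the bar is the list's median. The B cell list reaches furthest to the left with a median of -2.64, and the lists of mechanosensing and of YAP and TAZ targets have medians of 0.00 and -0.09.

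Genes that answer stretch of the ventricle leaned lower with the stiff gel, though none passed. Nppb, the B-type natriuretic peptide, measured 229.9, 265, 156 and 279 CPM in MI_stiff 1 to 4 and 656, 415, 597 and 418 CPM in MI_soft 1 to 4. The groups did not overlap, and the soft libraries were at the level of the MI hearts (between 391 and 625 CPM; log2 difference -1.17 ± 0.25 SE, edgeR adjusted p = 0.068). Nppa, the A-type peptide, measured 1743, 3458, 1135 and 2078 CPM in MI_stiff and 6518, 2674, 6013 and 3667 CPM in MI_soft, where MI_stiff 2 overlapped the soft range (log2 difference -1.17 ± 0.49 SE, edgeR adjusted p = 0.297). Des, the muscle intermediate filament desmin, measured 1562, 1326, 1334 and 1462 CPM in MI_stiff and 3099, 2443, 3294 and 4465 CPM in MI_soft without overlap (log2 difference -1.23 ± 0.27 SE, edgeR adjusted p = 0.068).

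Of 20 tested wall stress genes, 17 were below 0, and 6 lay below MI_soft without overlap, beside 6.87% of all genes. The median was -0.69, and -0.68 without MI_soft 4. No member passed by edgeR (10 had an unadjusted p under 0.05, all lower), and DESeq2 called 5 lower (185 of 8711 over all genes). Bag3, a co-chaperone that guards the sarcomere, lay at 160.4 to 191 against 256 to 298 CPM (log2 difference -0.68 ± 0.18 SE, edgeR adjusted p = 0.117), and Hspb1, a small heat shock protein, at 257 to 427 against 466 to 762 CPM (log2 difference -0.88 ± 0.23 SE, edgeR adjusted p = 0.117). Ankrd1, a stretch-induced protein of the sarcomere and also a YAP target, overlapped (2535 to 3489 against 2555 to 5537 CPM, adjusted p = 0.357).

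Sarcomere genes leaned lower with the stiff gel, though Myh6 did not. Myh7, the slow myosin heavy chain that rises in failing rodent hearts, measured 2516, 4460.3, 2297 and 5592 CPM in MI_stiff and 6475, 5179, 10451 and 4812 CPM in MI_soft with overlap (log2 difference -0.86 ± 0.31 SE, edgeR adjusted p = 0.225), and Myh6 differed by 0.44 ± 0.39 (SE) (adjusted p = 0.618). Tnnc1, the calcium-binding troponin of slow and heart muscle, lay wholly below, at 267, 165, 217 and 242 CPM in MI_stiff and 454, 359, 369.7 and 678 CPM in MI_soft (log2 difference -1.06 ± 0.24 SE, edgeR adjusted p = 0.0745). Of 15 tested contractile genes, 13 were below 0, and 5 lay below without overlap, beside 6.87% of all genes. The median was -0.36, -0.55 without MI_stiff 3 and -0.21 without MI_soft 4. MI_soft 4 had the highest Myl3 (5753 CPM, others 2182 to 3208) and Tnnt2 (6763 CPM) of the gel libraries. No contractile gene passed by edgeR (7 had an unadjusted p under 0.05, all lower), and DESeq2 called 3 lower. Atp2a2, which pumps calcium back into the sarcoplasmic reticulum, differed by 0.15 ± 0.24 (SE) (adjusted p = 0.803).

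Genes of fast skeletal muscle, which marks tissue outside the heart muscle, leaned lower with the stiff gel. Myl1, a fast muscle myosin light chain, measured 13.4, 17.1, 4.43 and 17.3 CPM in MI_stiff and 36.2, 78.9, 35 and 42.1 CPM in MI_soft (log2 difference -1.88 ± 0.62 SE, edgeR adjusted p = 0.197). Tnnt3, the fast troponin T, measured 2.83, 1.53, 3.38 and 1.34 CPM in MI_stiff and 5.90, 41.4, 7.20 and 11 CPM in MI_soft, with MI_soft 2 the highest (log2 difference -2.85 ± 1.03 SE, edgeR adjusted p = 0.228). All 9 tested members were below 0, 4 of them without overlap, beside 6.87% of all genes. The median was -1.51, -0.50 without MI_soft 2 and -2.43 without MI_stiff 3. By edgeR or DESeq2 none was called, and 5 had an unadjusted p under 0.05. The summed level was 1976 to 2944 CPM in MI_stiff and 2999 to 5499 CPM in MI_soft, over 17 members with a row, of which 4 (Myf6, Myod1, Myog and Pvalb) were at 0 in all MI_stiff libraries. Most of that sum was Acta1, a muscle actin that the heart makes as well, at 1719 to 2804 CPM in MI_stiff and 2738 to 5092 CPM in MI_soft with overlap (log2 difference -0.70 ± 0.29 SE, edgeR adjusted p = 0.293), and the part of skeletal muscle tissue in the other differences was not tested. Of 19 smooth muscle and pericyte genes, 10 were above and 9 below 0, with a median of 0.06. In all, 2 lay wholly above MI_soft and 4 wholly below it, beside 4.47% and 6.87% of all genes. The contractile members Tagln and Cnn1 were among those below, Tagln at 81.4 to 109.9 against 162 to 326 CPM (log2 difference -1.44 ± 0.40 SE, edgeR adjusted p = 0.136) and Cnn1 at 1.05 to 3.75 against 8.29 to 15.6 CPM (log2 difference -2.31 ± 0.65 SE, edgeR adjusted p = 0.138), both without overlap.

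No collagen passed the test. Col1a1 measured 2518 to 4092 CPM in MI_stiff and 2357 to 3243 CPM in MI_soft (log2 difference 0.25 ± 0.34 SE, edgeR adjusted p = 0.756), Col3a1 5330.2 to 8272 and 7225 to 9983 CPM (log2 difference -0.19 ± 0.23 SE, edgeR adjusted p = 0.712), and Postn, periostin of activated fibroblasts, 266 to 613 and 174 to 461 CPM (log2 difference 0.37 ± 0.34 SE, edgeR adjusted p = 0.627). The groups overlapped for these 3. The 21 tested collagens had a median of 0.06 (-0.16 with the length offset and 0.15 without MI_stiff 2), with 0 called by edgeR, 2 higher and 1 lower at an unadjusted p under 0.05, and 1 called higher by DESeq2. Without overlap 1 collagen lay above MI_soft and 1 below it, beside 4.47% and 6.87% of all genes. The lowest fitted difference was -1.84, in Col8a2. Col5a3, of a fibrillar collagen, was the member above, at 198, 139, 108 and 195 CPM in MI_stiff and 38.8, 63.5, 52.2 and 89.5 CPM in MI_soft (log2 difference 1.39 ± 0.34 SE, edgeR adjusted p = 0.092). Fn1, fibronectin, measured 1282, 982, 1551 and 1653 CPM in MI_stiff and 617, 1026, 751 and 546 CPM in MI_soft, where MI_stiff 2 overlapped (log2 difference 0.90 ± 0.25 SE, edgeR adjusted p = 0.138). Fn1 and Col5a3 are long genes, and with the length offset the differences were 0.52 (edgeR adjusted p = 0.397) and 0.90 (edgeR adjusted p = 0.349).

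Of 17 fibronectin and matricellular genes 4, and of 22 elastic fibre and crosslinking genes 5, lay below MI_soft without overlap, and 1 of each above. Over all genes 6.87% lay below and 4.47% above. None was called by edgeR (3 higher and 6 lower in the first list and 1 and 7 in the second at an unadjusted p under 0.05), and DESeq2 called 3 higher and 2 lower, and 0 and 2. Ccn5, a matricellular protein that counteracts fibrosis, measured 108, 55.6, 63.5 and 97.4 CPM in MI_stiff and 171, 241, 215 and 309 CPM in MI_soft (log2 difference -1.53 ± 0.33 SE, edgeR adjusted p = 0.068). Ccn2, the connective tissue growth factor and a YAP target, measured 747, 535, 359 and 359.6 CPM in MI_stiff and 1436, 1051, 1585 and 359.5 CPM in MI_soft, with MI_soft 4 inside the stiff range (log2 difference -1.15 ± 0.42 SE, edgeR adjusted p = 0.228). Without MI_soft 4 the difference in Ccn2 was -1.43 (edgeR adjusted p = 0.164). A pair of calcification regulators lay below as well. Mgp, which blocks calcification, measured 1638, 682, 1138 and 721 CPM in MI_stiff and 2515, 3241, 2485 and 3109 CPM in MI_soft without overlap (log2 difference -1.44 ± 0.33 SE, edgeR adjusted p = 0.077). Alpl, the alkaline phosphatase that promotes mineral deposition, also lay below, at 48.3, 26, 36.4 and 26.8 CPM in MI_stiff and 113, 106, 94.4 and 95.2 CPM in MI_soft (log2 difference -1.57 ± 0.31 SE, edgeR adjusted p = 0.0507). Ltbp2 and Mfap4, both of elastic fibres, lay at 164 to 219.7 against 364 to 509 CPM (log2 difference -1.16 ± 0.30 SE, edgeR adjusted p = 0.111) and at 375 to 497 against 626 to 1408 CPM (log2 difference -1.10 ± 0.28 SE, edgeR adjusted p = 0.105).

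Proteases leaned upward. Of 21 tested matrix proteases and inhibitors, 14 were above 0, and the median was 0.66. Without overlap 4 lay above MI_soft and 1 below, beside 4.47% and 6.87% of all genes. No protease passed by edgeR (7 had an unadjusted p under 0.05 higher and 2 lower), and DESeq2 called 1 higher. Leaving out MI_stiff 1 brought the median to 0.10, and the length offset to 0.37. Plau, the urokinase that activates plasmin, measured 23.2, 21.4, 36.5 and 23.2 CPM in MI_stiff and 8.44, 14.4, 6.15 and 6.69 CPM in MI_soft (log2 difference 1.55 ± 0.45 SE, edgeR adjusted p = 0.138), and Adamts4, which cuts proteoglycans, 2.14, 9.01, 1.83 and 4.57 and 0.672, 1.29, 0.925 and 0.167 CPM (log2 difference 2.50 ± 0.66 SE, edgeR adjusted p = 0.124). Timp2, a protease inhibitor, was the member below without overlap, at 150.5 to 241 against 275 to 455 CPM (log2 difference -0.83 ± 0.31 SE, edgeR adjusted p = 0.24). Mmp13, the interstitial collagenase of rodents, had the highest fitted difference of the list but came from 1 library, at 91.4 CPM in MI_stiff 1 and at most 0.989 CPM in the other 7.

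Genes known as readouts of stiffness in cultured cells had list medians near 0. The 20 tested genes of mechanosensing and cytoskeletal tension had a median of 0.00, with 10 above and 10 below 0, and the 18 YAP and TAZ targets a median of -0.09. Without MI_soft 3 these were 0.21 and 0.08, and without MI_stiff 2 the second was -0.17. In the first list 0 genes were called by edgeR, 0 by DESeq2 and 0 had an unadjusted p under 0.05. In the second, 0 were called by either tool, and 2 higher and 1 lower genes had an unadjusted p under 0.05.

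Epicardial and mesothelial genes, which mark the heart's outer lining, leaned upward. Wt1, a transcription factor of the activated epicardium, measured 30.8, 48.4, 37.8 and 36.1 CPM in MI_stiff and 24.1, 12.1, 19.4 and 4.51 CPM in MI_soft without overlap (log2 difference 1.35 ± 0.48 SE, edgeR adjusted p = 0.219). Msln, mesothelin, measured 12.8, 49.4, 63.9 and 70.5 CPM in MI_stiff and 19.1, 10.8, 5.75 and 9.11 CPM in MI_soft, where MI_stiff 1 was within the soft range (log2 difference 2.14 ± 0.65 SE, edgeR adjusted p = 0.16). Of 13 tested members, 9 were above 0, and 4 lay above without overlap, beside 4.47% of all genes. The median was 1.09, 1.11 without MI_soft 4 and 1.67 without MI_soft 1. The edgeR test called 0 of them (6 had an unadjusted p under 0.05 higher and 1 lower), and DESeq2 called 2 higher.

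Ribosomal protein genes, which are short and have many pseudogenes that can share their reads, lay slightly below. Of 24 tested genes 23 were below 0, with a median of -0.25, which was -0.05 without MI_soft 4, -0.45 without MI_stiff 1 and -0.01 with the length offset. Rpl13, of the large ribosomal subunit, measured 61.5, 40.5, 74.4 and 60.4 CPM in MI_stiff and 110.1, 149, 121 and 204 CPM in MI_soft (log2 difference -1.30 ± 0.31 SE, edgeR adjusted p = 0.092). None of the list was called by edgeR (5 had an unadjusted p under 0.05), and DESeq2 called 4 lower. All 4 of the genes called lower between the gels were in the 2 shortest of the 5 length classes, and the 7 called higher were in the other 3. All 11 calls were kept with the length offset.

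The 11 genes can be set beside the ligated hearts without gel; these comparisons share the MI libraries and are given side by side only, as log2 difference ± SE with edgeR's adjusted p. Against MI, edgeR called 135 genes (1.19%) in MI_stiff and 3 (0.0264%) in MI_soft. For Fmo5 the difference from MI was 1.65 ± 0.30 in MI_stiff (adjusted p = 0.0191) and -0.03 ± 0.30 in MI_soft (adjusted p = 0.964). For Atf3 it was 1.56 ± 0.31 (adjusted p = 0.025) and -0.27 ± 0.30 (adjusted p = 0.684). For Nupr1 it was -1.65 ± 0.33 (adjusted p = 0.025) and 0.16 ± 0.32 (adjusted p = 0.83). In these 3 genes the stiff gel hearts passed the test against MI, and the soft gel hearts did not. Aplnr and Arntl also passed in MI_stiff, at 1.47 ± 0.26 (adjusted p = 0.0184) and 1.76 ± 0.37 (adjusted p = 0.0367), beside -0.60 ± 0.26 (adjusted p = 0.291) and -1.11 ± 0.38 (adjusted p = 0.192) in MI_soft. The other 6 genes passed in neither group. Ucp3 stood at 0.95 ± 0.27 in MI_stiff (adjusted p = 0.0875) and -1.25 ± 0.28 in MI_soft (adjusted p = 0.0914). Dbp stood at -2.58 ± 0.63 (adjusted p = 0.0533) and 1.53 ± 0.60 (adjusted p = 0.247), and Ccl19 at -1.79 ± 0.44 (adjusted p = 0.0544) and 0.84 ± 0.43 (adjusted p = 0.355). These genes had their fitted MI level between the gels. Npas2 stood at 0.78 ± 0.39 (adjusted p = 0.311) and -2.04 ± 0.41 (adjusted p = 0.0894), Angptl4 at 1.15 ± 0.35 (adjusted p = 0.11) and -0.83 ± 0.35 (adjusted p = 0.284), and Ighe, with MI libraries between 3.38 and 208 CPM, at -2.74 ± 1.11 (adjusted p = 0.221) and 5.07 ± 1.22 (adjusted p = 0.0977).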

How the data were processed

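Bulk RNA-seq of 16 rat infarct-zone libraries, 4 in each of 4 labelled groups, was used; the comparison is MI_stiff against MI_soft. Per the submitters' processing notes, STAR 2.7.3a, RSEM 1.3.1 and build rn7 were used; for the annotation and strand setting the sources used here give nothing. Gene values are expected counts as the authors deposited them, which RSEM estimates and which need not be whole (0.785% were not); they were rounded. The authors also deposited TPM, used here only for relative gene length (the count divided by TPM, known for 96.1% of tested genes) and for choosing the most abundant member of a list.

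edgeR 4.0.16 (R 4.3.3, limma 3.58.1) was run on all 16 libraries in one fit: filterByExpr kept 11376 of 17085 genes, TMM scaled the libraries, and a robust quasi-likelihood test gave p-values adjusted by Benjamini-Hochberg over all genes in the fit, with calls at an adjusted p under 0.05. Log2 CPM values of list means, library correlations and length classes use a prior count of 2. The log2 differences fitted by edgeR use its default prior count, and CPM uses TMM-scaled totals. Totals of 11456157 to 14456186 counts per gel library leave genes under about 1 CPM resting on few reads. The named genes are all called genes, fixed tissue checks and, for some lists only, the most abundant member. For many lists that member was left out. Acta2 and Pecam1 were not analysed here, and the other named genes were added after their values were seen. Gene lists and groups were chosen with earlier results of these data known. Single values were compared by exact permutation tests. Alternatives were DESeq2 1.42.0, limma-voom, RLE scaling, no filter, mitochondrial genes removed, the number of genes with a count as covariate, gel libraries alone, a replicate block and each library left out. After the data were seen, a gene length offset and leaving out libraries that stood apart or had few genes detected were added. The labels do not say what the replicate numbers mark, so the main fit did not treat the samples as paired.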

Additional observations from a re-analysis of the deposited data

Results flagged for a closer look

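In groups of 4 libraries, a highest or lowest library was taken as standing apart where its gap to the nearest other one, over the group's whole range, exceeded Dixon's critical value, which chance gives for about 1 in 20 groups. Of 226 pairs of a group with a named gene or a library measure, 18 (7.96%) did, all of them genes: 7 in MI_soft 4, 3 in MI_stiff 3 and 3 in MI_stiff 2. All values are CPM, and none of these gaps was tested for a cause.

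In MI_soft 4, Cryab, a small heat shock protein of muscle, was at 3185 (1642 to 1800 in the other 3), Stip1 at 97.6 (68.3 to 72.2) and Use1, a vesicle fusion protein, at 129 (54.5 to 61.9). The same library was low for Per2 at 37.0 (85.1 to 88.6), Per3 at 4.68 (12.1 to 14.4), Tek at 35.6 (66.8 to 74.5) and Hif1a at 12.5 (49.1 to 56.6). For Stip1 and Use1 the group's direction against MI_stiff did not rest on it, since the other 3 soft libraries also lay above all stiff ones. In MI_soft 2, Cxcl12 was at 136 (63.7 to 70.8), Mmp12 at 265 (65.7 to 71.1) and Mzb1 at 5.48 (27.4 to 31.5).

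In MI_stiff 3, Dbp was at 36.2 (4.50 to 6.03), Nfil3 at 10.3 (19.6 to 21.9) and Plau at 36.5 (21.4 to 23.2). MI_stiff 2 was low for 3 macrophage genes: Lyz2, lysozyme, at 297 (1388 to 1846), Il1rn at 10.8 (114 to 142) and Mmp12 at 146 (646 to 785). In MI_stiff 1, Cryab was at 1872 (1337 to 1416) and Rnf144a, a ubiquitin ligase, at 2.37 (7.05 to 7.67).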

How the results depend on the processing

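The 11 genes changed (7 higher, 4 lower) depended on the fit. The count was 278 (93 and 185) with DESeq2, 17 (8 and 9) with limma-voom, 513 (200 and 313) with voom quality weights, 40 (16 and 24) with the number of genes with a count as covariate, 8 (3 and 5; 4 shared with the 11) with the 8 gel libraries alone, 12 (8 and 4) with RLE scaling, 9 (6 and 3) without the filter and 13 (9 and 4) without mitochondrial genes. Among alternatives chosen after seeing the data, it was 243 (91 and 152) without MI 2, MI 3, MI 4 and MI_soft 4, 27 (11 and 16) with the length offset, 85 (33 and 52) for the gel libraries without MI_soft 4 and 9 (5 and 4) without MI_stiff 3 and MI_soft 4. With a replicate block it was 3 (3 and 0): Ucp3, Aplnr and Arntl. Same-numbered libraries deviated together at r = -0.266, 0.125, 0.176 and 0.0556, beside -0.309 to 0.323 for pairs with different numbers. So few pairs cannot tell whether same-numbered libraries shared an animal, litter or day, which the labels do not say. Leaving out 1 library gave 4 to 57 genes, 4 to 24 higher and 0 to 41 lower; it was 57 without MI 3, 55 without MI 1, 5 without MI_soft 4 (5 and 0), 10 without MI_stiff 2 (10 and 0) and 4 without MI_stiff 4 (4 and 0). The cause was not tested.

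Of 1404 pairs of a named gene and an alternative, 1142 kept direction and side of the threshold, 228 gained a call, 27 lost one and 7 reversed. None of the reversals was a called gene: Myh6 (-0.0479), Atp2a2 (-0.104) and Col1a1 (-0.0542) with the length offset, Cd68 (-0.0421) with the block, Lyz2 (0.0107 without MI 2, MI 3, MI 4 and MI_soft 4 and 0.014 for gel libraries without MI_soft 4), and Ifi27 (0.144) without MI_stiff 3 and MI_soft 4. With 1 library left out, Cd68 ranged from -0.247 to 0.539, Lyz2 from -0.743 to 0.0132 (without MI_soft 4) and Mmp13 from -0.408 (without MI_stiff 1) to 7.24. Of 377 pairs of a list median and an alternative, from 13 lists, 23 moved by at least the larger group's SD between replicates. That SD includes any library left out, so a list resting on 1 library can count as unmoved. The interferon list, with an SD of 1.07 in MI_soft, did so without MI_soft 4, though its median went from -1.0 to -0.14. Gene length and the 4 libraries with the fewest genes limit what a count of calls can carry.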

Other observations

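Several genes outside the lists shared the adjusted p of 0.0507 just above the threshold. Rras, a small GTPase of vessel and muscle cells, measured 29.6, 18.8, 33.1 and 21.7 CPM in MI_stiff 1 to 4 and 45.4, 65.2, 58.5 and 129 CPM in MI_soft 1 to 4 (log2 difference -1.53 ± 0.31 SE, edgeR adjusted p = 0.0507). Ifrd2, a regulator of translation, measured 18.6, 11, 17.8 and 16.2 CPM in MI_stiff and 32, 34.7, 30.2 and 47.0 CPM in MI_soft (log2 difference -1.18 ± 0.23 SE, edgeR adjusted p = 0.0507). Use1 measured 31.4, 23, 33.8 and 32.5 CPM in MI_stiff and 61.9, 54.4, 56.4 and 129 CPM in MI_soft (log2 difference -1.32 ± 0.27 SE, edgeR adjusted p = 0.0507). These 3 lay below MI_soft in all 4 stiff libraries. Rnf144a lay above, at 2.37, 7.24, 7.67 and 7.05 CPM in MI_stiff and 1.87, 1.14, 1.65 and 1.09 CPM in MI_soft (log2 difference 2.07 ± 0.42 SE, edgeR adjusted p = 0.0507), with MI_stiff 1 the nearest to the soft range.

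Cell cycle genes leaned upward without a call: of 30 tested, 21 were above 0, with a median of 0.34 (0.22 without MI_stiff 1). In all, 3 lay above MI_soft without overlap, beside 4.47% of all genes. By edgeR 0 were called, 1 had an unadjusted p under 0.05, and DESeq2 called 0.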
